A study of Mus musculus with 60 samples.

Results

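Methylation of lysine 9 of histone H3 (H3K9) marks silent chromatin, and 10 mouse genes that write, erase or read this mark were followed in 60 RNA-seq libraries of cultured fibroblasts. The genes were given as a list of symbols: the methyltransferases Suv39h1, Suv39h2, Setdb1, Ehmt1 and Ehmt2, the demethylases Kdm3a, Kdm4a, Kdm4b and Kdm4c, and the reader Cbx5. All 10 were found among the 56980 gene rows that both count tables share, and all 10 passed the filter on low counts in every fit. Suv39h1 and Suv39h2 make the trimethylated form (H3K9me3) that fills the repeat-rich chromatin around centromeres, and Setdb1 makes it at retroelements and silenced genes. Ehmt1 (GLP) and Ehmt2 (G9a) form a dimer that adds the mono- and dimethyl forms in the rest of the genome. Kdm3a removes mono- and dimethyl H3K9, whereas Kdm4a, Kdm4b and Kdm4c act on the trimethyl form, and all 4 are dioxygenases that need iron, oxygen and 2-oxoglutarate. Cbx5 encodes HP1 alpha, which binds H3K9me3 and recruits the enzymes that spread it. In reprogramming of somatic cells to pluripotency, H3K9me3 is known as a barrier, and ascorbic acid is known to raise the activity of the H3K9 demethylases.

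The study asked how short induction of the reprogramming factors, and inhibitors of TGFb receptors, act on fibroblasts of a mouse with a DNA repair defect, in which H3K9me3 was also stained. In the reprogramming table, D/KO fibroblasts came from tail tips of a male 8-week-old 4FJ_ERCC1_(d/-) mouse line, which carries a truncated Ercc1 allele over a null allele, and WT fibroblasts from tail tips of a female 22-week-old 4FJ_(+/-)_OCT4-GFP line. Both carry a doxycycline-inducible cassette of Oct4, Klf4, Sox2 and c-Myc (OKSM) at Col1a1 with the rtTA activator at ROSA26, and both were sampled at day 0, and at day 2 and day 4 of doxycycline (2 ug/ml). Each time point was taken without and with VC, which is ascorbic acid (50 ug/ml) plus CHIR99021 (3 uM), an inhibitor of the kinase GSK3. The study's methods do not say how long the day 0 plus VC cells were kept in VC. In comparisons with day 0 plus VC, induction and time in VC therefore cannot be told apart. Genotype, sex, age and line change together between D/KO and WT here, so their parts cannot be told apart. In the inhibitor table, D/KO means tail tip fibroblasts of a female 4-week-old ERCC1_(d/-) mouse, untreated (control) or treated for 3 days with DMH-1 or A83-01 (each at 1 uM) or with Vactosertib or Repsox (each at 0.1 uM). The same table holds untreated ERCC1_(+/+)_WT fibroblasts of 14-week-old females from tail tip and from skin. It also holds a 22-week-old group of the 4FJ_(+/-)_OCT4-GFP line with the treatment label TGFB, which the labels do not explain. The study's methods describe this line as tail tip fibroblasts of a female. The TGFB group was left out of all comparisons. Each of the 20 groups has 3 libraries. The study's methods say that RNA was taken from cell samples in triplicate, but no source says that these are separate cultures or animals. The p-values thus measure only the spread between these libraries, which may be technical.

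Total counts were 16538374 to 18484951 per library in the reprogramming table and 17102639 to 30599138 in the inhibitor table. Collagen and other fibroblast markers summed to 36810 to 262682 CPM (counts scaled to the library total) and Cd3e was at 0 in every group, but endothelial markers summed to 198 to 709 CPM in D/KO libraries of the reprogramming table and 4.73 to 116 CPM in WT libraries, and immune markers to 2.12 to 10.2 and 39.7 to 131 CPM. Ercc1 itself lay at 8.03 to 18.6 CPM in D/KO and 16.8 to 29.1 CPM in WT libraries of the reprogramming table. Among the inhibitor libraries it lay at 20.3 to 20.9 CPM in control D/KO and at 13.3 to 21.6 CPM in WT tail tip, a difference that was not called (log2 0.21), so Ercc1 does not separate these 2 groups. These counts cannot tell a truncated transcript from an intact one. Libraries labelled male had Ddx3y at 60.1 to 105 CPM, and those labelled female had no Ddx3y count. Of the 60 libraries, replicate 1 of WT skin and replicate 2 of Repsox stood farthest from the other libraries of their groups. The SD of their log2 deviation over 11767 genes was 0.829 and 0.606, and the deviation fell with gene length (Spearman's rho across genes -0.526 and -0.654). A trend of this size with length, in either direction, was not particular to them, since it was also 0.648 in replicate 2 and -0.614 in replicate 3 of WT tail tip in the inhibitor table. Calls among the 10 genes that rest on them are given with and without them, whereas the counts of marker genes include them.

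The start sites of the 4 genes whose response to induction was largest or differed between the lines (Suv39h1, Kdm3a, Kdm4b and Cbx5) are shown first. Each window covers 250 bases before and 50 bases from the GENCODE M39 canonical start site on GRCm39, read 5' to 3' on the gene's strand. Capitals mark the CCAAT box (CCAAT or its reverse complement), a binding site of NF-Y, and the E-box CACGTG.
Suv39h1: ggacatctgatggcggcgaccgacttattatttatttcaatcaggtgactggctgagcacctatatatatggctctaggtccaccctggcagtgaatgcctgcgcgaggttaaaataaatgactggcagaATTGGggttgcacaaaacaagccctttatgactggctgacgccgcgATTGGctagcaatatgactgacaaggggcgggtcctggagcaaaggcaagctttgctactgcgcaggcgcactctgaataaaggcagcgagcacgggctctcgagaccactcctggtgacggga
Kdm3a: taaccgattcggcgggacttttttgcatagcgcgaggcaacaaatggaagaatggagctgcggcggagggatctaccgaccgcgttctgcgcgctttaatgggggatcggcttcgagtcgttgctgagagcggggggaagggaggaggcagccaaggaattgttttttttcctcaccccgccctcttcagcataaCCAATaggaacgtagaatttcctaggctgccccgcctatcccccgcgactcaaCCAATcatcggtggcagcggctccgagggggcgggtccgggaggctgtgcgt
Kdm4b: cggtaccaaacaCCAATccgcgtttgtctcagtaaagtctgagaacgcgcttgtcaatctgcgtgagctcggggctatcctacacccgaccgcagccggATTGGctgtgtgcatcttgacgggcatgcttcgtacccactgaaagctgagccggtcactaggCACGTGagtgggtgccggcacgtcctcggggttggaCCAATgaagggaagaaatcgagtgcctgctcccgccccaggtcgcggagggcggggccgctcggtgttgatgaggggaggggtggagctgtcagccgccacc
Cbx5: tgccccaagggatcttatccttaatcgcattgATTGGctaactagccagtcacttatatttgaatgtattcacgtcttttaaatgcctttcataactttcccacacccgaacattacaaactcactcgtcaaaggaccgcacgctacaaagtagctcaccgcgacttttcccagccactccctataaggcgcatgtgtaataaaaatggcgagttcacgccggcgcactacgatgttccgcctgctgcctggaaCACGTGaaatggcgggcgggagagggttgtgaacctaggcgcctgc
The Suv39h1 window is chrX:7940950-7941249 (minus strand), that of Kdm3a is chr6:71609925-71610224 (minus strand), that of Kdm4b is chr17:56632663-56632962 (plus strand) and that of Cbx5 is chr15:103148370-103148669 (minus strand). A CCAAT box was found in 7 of the 10 promoters and in 39.9% of 21757 promoters of protein-coding genes searched on both strands. The CACGTG letters were in 4 of 10 (Ehmt2, Kdm4b, Kdm4c and Cbx5) and in 7.82% of all. The hypoxia response core (ACGTG or GCGTG, which lies inside CACGTG) was in 7 of 10 and in 48% of all, but in neither the Suv39h1 nor the Kdm3a window. The SMAD box CAGAC was in 3 of 10 and in 48.5% of all, and none of the 10 held an E2F site written as TTTCCCGC, TTTGGCGC, TTTCGCGC or TTTGCCGC, which 2.82% of all promoters held. These matches are letters in a window and say nothing about binding in these cells.

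In levels set per kb of gene length (CPM divided by the length that the count tables give), Ehmt2 was the most abundant of the 10 genes, with a median of 36.3 CPM per kb over the 36 libraries of the reprogramming table and a range of 29.4 to 46. Kdm4a followed at a median of 21.4, and its range of 17.3 to 29.6 overlapped that of Ehmt2 at its edge. Cbx5 (median 11.6) and Kdm4b (11.5) lay together. Ehmt1 (5.45), Kdm3a (5.32), Setdb1 (5.06), Kdm4c (3.85) and Suv39h1 (3.02) formed a lower set whose ranges overlapped. Suv39h2 was the least abundant at a median of 0.534 CPM per kb, which is 12 to 103 counts per library, so its values carry the largest counting error. RNA of the G9a subunit was thus far above that of its partner GLP on the per-kb scale. The order in the inhibitor table was similar, with Ehmt2 at 38, Kdm4a at 21.4 and Suv39h2 at 0.335 CPM per kb. Part of the exons of Suv39h1 (17.23% of its length, with Gm14820) and Suv39h2 (8.1%, with Dclre1c) overlaps a gene on the opposite strand, and the strand setting of the counting is not given in the sources used here. Gm14820 had 8 counts in all 36 reprogramming libraries and Dclre1c 2905, against 9872 for Suv39h1 and 1476 for Suv39h2. The overlap may affect the values of both Suv39h genes, in a direction that cannot be told without the counting settings.

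**Figure D1:**
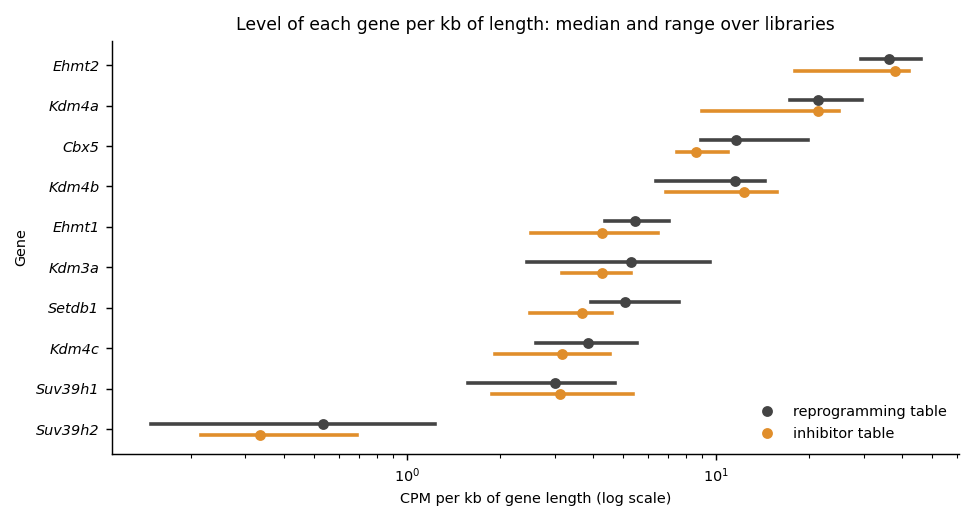
Level of each gene in CPM per kb of gene length on a log axis, with the median (point) and the range over libraries (line) in the 36 libraries of the reprogramming table and the 24 of the inhibitor table. Ehmt2 and Kdm4a lie at the top, and Suv39h2 lies below all other genes at medians of 0.534 and 0.335.

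In D/KO fibroblasts induced for 4 days with VC, against day 0 plus VC, 6 of the 10 genes rose (Suv39h2, Setdb1, Ehmt1, Kdm3a, Kdm4c and Cbx5) and 2 fell (Kdm4a and Kdm4b), in edgeR's quasi-likelihood test at a Benjamini-Hochberg adjusted p under 0.05. Of all 15832 genes tested in this comparison, 27.9% were called higher and 26.2% lower. The median log2 fold change was 0.415 over the 10 genes and 0.0128 over all genes. Thus 3 of 5 writers, 2 of 4 erasers and the reader rose, and the other 2 erasers fell. Markers of other cell types moved in the same comparison. Of 8 keratinocyte and epithelial markers 7 were tested and 5 were higher, with a sum of 3.56 to 3.91 CPM at day 0 plus VC and 553 to 677 CPM at day 4 plus VC, while 8 of 10 fibroblast markers were lower, with a sum that went from 191207 to 262682 CPM down to 36810 to 38412 CPM. In WT the epithelial sum reached 15 to 18.6 CPM and the fibroblast sum went from 162331 to 177841 CPM down to 64345 to 75951 CPM. In D/KO the endothelial sum went from 215 to 256 CPM up to 383 to 514 CPM. Of its 5 markers 2 were higher (Tek by 3.65 and Pecam1 by 1.76) and 2 lower (Emcn at -2.77). The WT endothelial sum also rose, from 4.73 to 7.07 CPM up to 98 to 116 CPM, with Tek at 4.39 and Pecam1 at -2.78. In D/KO the muscle sum went from 42.3 to 58.3 CPM down to 3.7 to 5.4 CPM. The part of these shifts in the values of the 10 genes was not tested. At day 2 plus VC in D/KO, 3 genes rose (Setdb1, Ehmt1 and Cbx5) and none fell, where 23.8% of all genes were called higher and 23.6% lower. The fibroblast sum was then 73111 to 73478 CPM, the epithelial sum 117 to 144 CPM and the muscle sum 8.74 to 12.4 CPM. Each lay outside its range at day 0 plus VC, while the endothelial sum of 198 to 222 CPM overlapped its own. Their part was not tested. Without VC, none of the 10 was called at day 2 by edgeR, 1 had an unadjusted p under 0.05 and DESeq2 called 1, with 14.3% of all genes higher and 13.2% lower. At day 4 without VC, Kdm3a and Cbx5 rose and Suv39h1 and Kdm4a fell, beside 18.3% of all genes called higher and 18.7% lower. The summed fibroblast markers went there from between 96748 and 132740 CPM to between 42846 and 44727 CPM, with 7 of 10 called lower and 1 higher, and the endothelial ones from between 585 and 709 CPM to between 327 and 345 CPM, with 4 of 5 called lower and 1 higher, and their part was not tested. The Ehmt1 change at day 2 plus VC was 0.02 and not called against day 0 without VC.

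In WT fibroblasts at day 4 plus VC, Setdb1, Kdm3a, Kdm4b and Kdm4c rose and Suv39h1 fell, with 22.7% of all genes called higher and 22% lower. At day 4 without VC, Setdb1 and Kdm3a rose and Suv39h1 fell, with 11.7% of all genes higher and 12.8% lower. At day 2 plus VC only Suv39h1 was called, and it was lower, where 13.8% of all genes were higher and 13.7% lower. At day 2 without VC edgeR called none of the 10, although Suv39h1 had an unadjusted p under 0.05 and DESeq2 called 1 gene, with 6.26% of all genes higher and 4.3% lower. The median over the 10 genes was 0.201 at day 4 plus VC, where that over all genes was 0.0261.

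**Figure D2:**
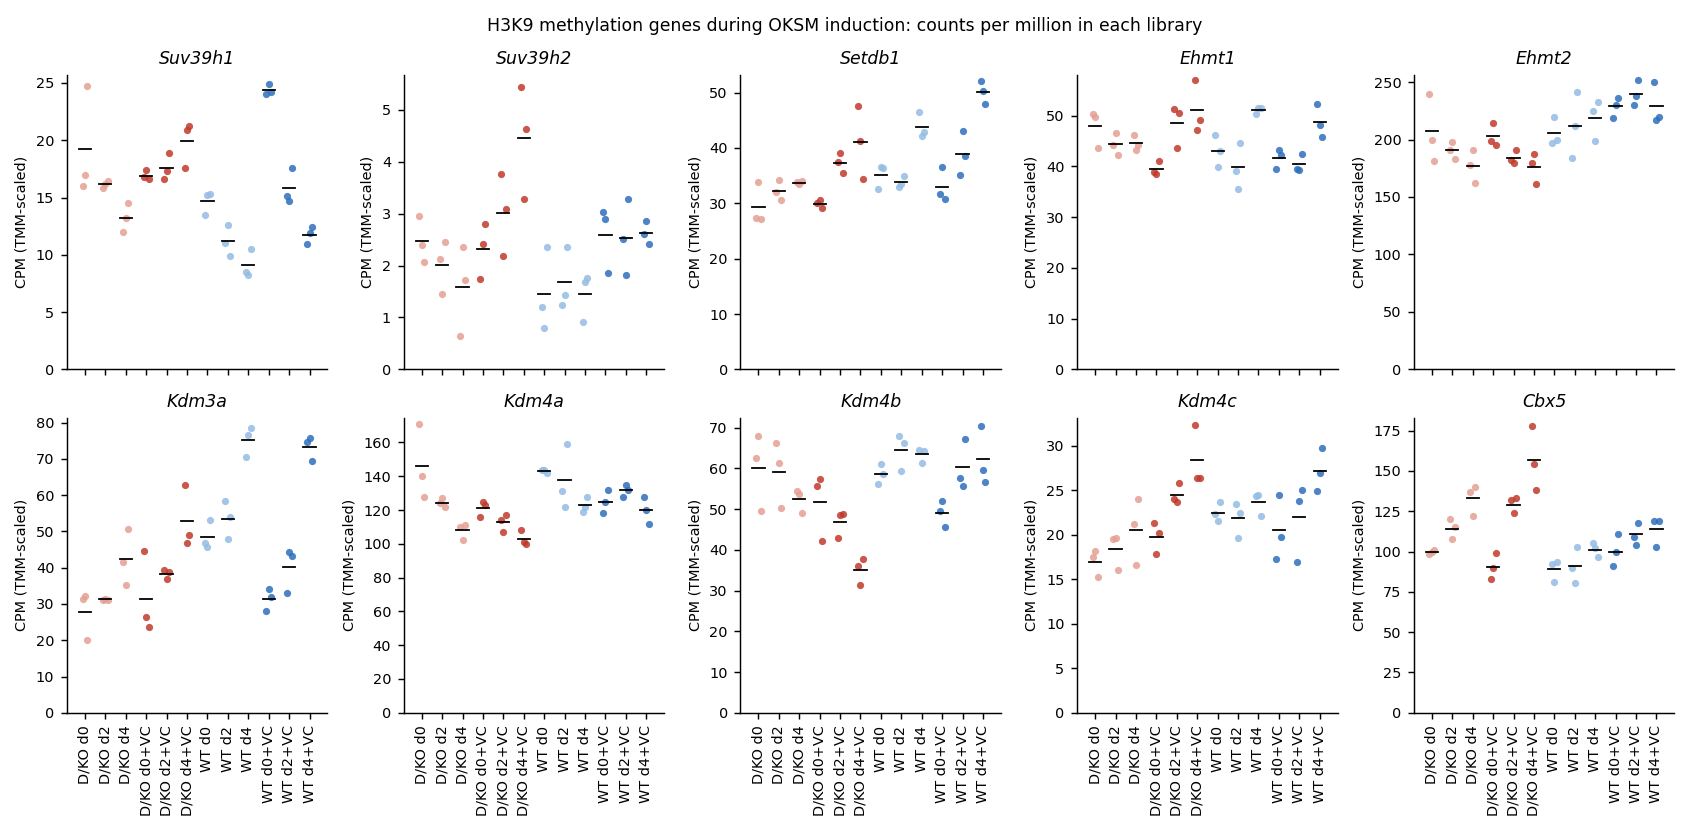
CPM (TMM-scaled) of each gene in the 12 groups of the reprogramming table, with a point per library and a line at the mean of 3, in light colour without and in dark colour with VC (red, D/KO; blue, WT; vertical axes start at 0). Suv39h1 lies at 24 to 24.9 CPM in WT at day 0 plus VC and falls to 10.9 to 12.4 at day 4 plus VC, whereas Cbx5 in D/KO reaches 138 to 178.

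Among the writers, Suv39h1 (ENSMUSG00000039231, chrX:7927410-7940999 on GRCm39) ranged 2.68-fold between its lowest and highest group mean in the reprogramming table, next to 3.06-fold for the low counts of Suv39h2. In WT cells with VC its 3 libraries lay at 24, 24.9 and 24.2 CPM at day 0, at 15.1, 14.7 and 17.6 at day 2, and at 10.9, 11.9 and 12.4 at day 4. These 3 time points do not overlap, and the log2 fold change at day 2 was -0.62 ± 0.13 (SE, edgeR adjusted p = 0.000426). The day 4 change was -1.05 ± 0.14 (edgeR adjusted p = 6.71e-08). Without VC, WT cells went from 13.5, 15.2 and 15.3 CPM at day 0 to 8.49, 8.26 and 10.5 at day 4, a log2 fold change of -0.69 ± 0.14 (edgeR adjusted p = 0.000254). VC alone raised Suv39h1 in WT cells at day 0, with a log2 change of 0.73 ± 0.13 (edgeR adjusted p = 5.98e-05), and no value of either group overlaps the other. This sets the baseline of the VC time course: against day 0 without VC, the log2 fold change with VC was 0.11 on day 2 and -0.32 on day 4, and neither was called. In D/KO cells with VC the levels were 16.8, 17.4 and 16.6 CPM at day 0 and 17.6, 20.9 and 21.2 at day 4, a difference of 0.23 that was not called. Without VC, D/KO cells fell from 16, 17 and 24.7 to 12, 13.2 and 14.5 CPM, with a log2 fold change of -0.54 (edgeR adjusted p = 0.00144). The day 0 library at 24.7 CPM decides this call, since without it the log2 fold change was -0.32 and the adjusted p 0.0621.

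The difference between D/KO and WT in the change of Suv39h1 was tested directly. With VC its log2 size at day 2 was 0.68 ± 0.19 (edgeR adjusted p = 0.013). By day 4 it was 1.29 ± 0.19 (edgeR adjusted p = 2.88e-06), and both times the change of D/KO cells lay above that of WT cells. Against day 0 without VC as the baseline in both lines, these differences became -0.24 and 0.37 and neither was called. Without VC the difference was 0.14 at day 2 and 0.15 at day 4, and neither was called. Proliferation markers, a list of 12 genes such as Mki67 and Top2a, are given beside these values. Their summed level was 260 to 277 CPM in D/KO at day 0 plus VC and 642 to 715 CPM at day 4 plus VC, with all 12 called higher, while in WT it was 237 to 278 and 175 to 200 CPM, with 8 of 12 called lower. With VC alone at day 0 in WT it rose from 96.5 to 110 CPM to 237 to 278 CPM, with 11 of 12 called higher. At day 4 without VC in WT, where Suv39h1 fell by 0.69 on the log2 scale, it was 102 to 117 CPM, with 4 of 12 called lower and 1 higher. Xist, the X-linked RNA that silences a female X chromosome, also moved in WT cells, which are labelled female, in the comparisons of the X-linked Suv39h1. Its mean was 377 CPM at day 0, 89.5 CPM at day 0 plus VC (log2 difference -2.07, edgeR adjusted p = 1.95e-07), and 643 CPM at day 4 plus VC (2.84 against day 0 plus VC, edgeR adjusted p = 2.2e-10). At day 2 plus VC, where Suv39h1 was already lower, Xist was not called (-0.12), and its part in the Suv39h1 values was not tested. At day 4 without VC in D/KO, 2 of 12 were higher and none lower while Suv39h1 fell. The part of cycling cells in the Suv39h1 values was not tested, and in bulk RNA fewer cells of a kind and less RNA per cell cannot be told apart.

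**Figure D3:**
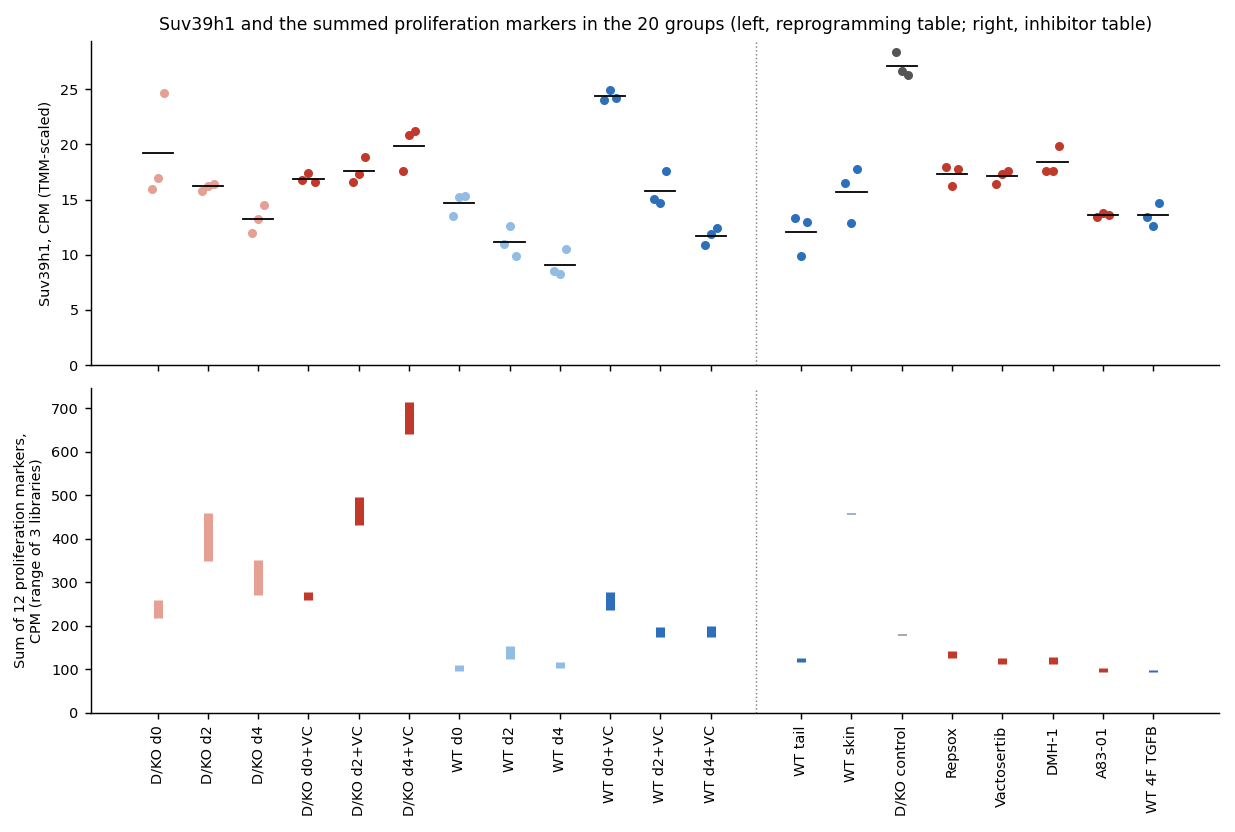
Upper panel, Suv39h1 in CPM in each library with the mean of 3 (line) over the 20 groups; lower panel, range over 3 libraries of the summed CPM of 12 proliferation markers (vertical axes start at 0). Among the WT groups of the reprogramming table both are highest at day 0 plus VC, and both are higher in the D/KO control than in the inhibitor groups. The marker sum is highest of all in D/KO at day 4 plus VC, at 642 to 715 CPM, where Suv39h1 lies below its level in WT at day 0 plus VC. WT skin has a marker sum of 457 to 459 CPM at a Suv39h1 level of 12.9 to 17.8 CPM.

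Suv39h2 (ENSMUSG00000026646, chr2:3456852-3476068), the second enzyme of this kind, went in D/KO cells with VC from 1.75, 2.41 and 2.81 CPM before induction to 5.44, 3.29 and 4.63 CPM at day 4. The groups do not overlap, and the log2 fold change was 0.94 ± 0.36 (edgeR adjusted p = 0.0253). Its call was lost when any of 3 libraries was left out, with adjusted p-values up to 0.115. At day 4 without VC D/KO cells had 0.651, 2.35 and 1.73 CPM, so that the level with VC was higher by 1.49 ± 0.36 on the log2 scale at that time (edgeR adjusted p = 0.00135). In WT cells Suv39h2 ranged from 0.805 to 3.28 CPM and was called in no comparison.

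Setdb1 (ENSMUSG00000015697, chr3:95230836-95264513) rose in both lines. In D/KO cells with VC its values were 30, 30.5 and 29.2 CPM at day 0, 37.5, 39.1 and 35.4 at day 2, and 47.6, 41.3 and 34.4 at day 4. All libraries after induction lie above those at day 0, with log2 fold changes of 0.32 ± 0.11 (edgeR adjusted p = 0.013) and 0.46 ± 0.11 (edgeR adjusted p = 0.000396). In WT cells with VC it went from 31.7, 36.6 and 30.7 to 52, 50.3 and 48 CPM, a log2 fold change of 0.60 ± 0.11 (edgeR adjusted p = 1.39e-05). Day 4 without VC gave 0.32 in WT (edgeR adjusted p = 0.0225) and 0.20 in D/KO, which was not called. The WT call without VC was lost without replicate 1 of day 0 (0.27) or of day 4 (0.28), and the D/KO call at day 2 without replicate 2 of day 2 plus VC (0.29). The change at day 4 plus VC differed between the lines by -0.14 ± 0.15, not called. Of the genes that make H3K9me3, Setdb1 was thus the one called higher in both lines.

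The G9a complex moved less. Ehmt1 (ENSMUSG00000036893, chr2:24679940-24809626) rose in D/KO cells with VC from 38.9, 38.5 and 41 CPM at day 0 to 57, 47.1 and 49.1 at day 4, a log2 fold change of 0.37 ± 0.10 (edgeR adjusted p = 0.00117). Here too VC set the baseline, since VC alone lowered Ehmt1 at day 0 from 50.3, 49.8 and 43.6 CPM by 0.28 (edgeR adjusted p = 0.0267), and against day 0 without VC the difference at day 4 plus VC was 0.09 and not called. In WT cells edgeR called Ehmt1 in no comparison of the reprogramming table, whereas DESeq2 called it higher at day 4 without VC, where edgeR gave 0.25 (95% interval 0.06 to 0.43). Ehmt2 (ENSMUSG00000013787, chr17:35117445-35133028) was not called in any comparison of that table, with group means of 176 to 240 CPM.

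Among the erasers, Kdm3a (ENSMUSG00000053470, chr6:71565956-71609974), a gene known to be induced by hypoxia, showed the largest rise. Per the study's methods, the tail tip fibroblasts were cultured in hypoxic conditions throughout. In WT cells with VC Kdm3a went from 28, 34 and 32 CPM at day 0 to 33.1, 44.4 and 43.2 at day 2 and 74.8, 75.7 and 69.5 at day 4. Day 4 stands apart from both earlier times, with a log2 fold change of 1.23 ± 0.17 (edgeR adjusted p = 2.44e-07), which is 2.34-fold. VC alone lowered Kdm3a in WT at day 0 from 46.8, 45.8 and 53.1 CPM, with a log2 fold change of -0.63 (edgeR adjusted p = 0.00413), so against day 0 without VC the rise at day 4 plus VC was 0.59, which was still called. Without VC, WT cells reached 70.4, 76.6 and 78.4 CPM at day 4, a log2 fold change of 0.63 ± 0.17 (edgeR adjusted p = 0.00445). Thus WT cells ended at much the same Kdm3a level with and without VC, and the difference at day 4 was -0.04 ± 0.16, not called.

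In D/KO cells Kdm3a started lower, at 31.4, 32.1 and 20.1 CPM at day 0, which is 0.80 ± 0.17 below WT on the log2 scale (edgeR adjusted p = 0.000233). It rose to 41.7, 35.1 and 50.7 CPM at day 4 without VC, by 0.61 ± 0.17 (edgeR adjusted p = 0.00421), and this call was lost without the day 0 library at 20.1 CPM, with a log2 fold change of 0.42 and an adjusted p of 0.0627. With VC it rose from 44.7, 26.3 and 23.6 to 62.8, 46.8 and 48.9 CPM, by 0.74 ± 0.17 (edgeR adjusted p = 0.000354). The day 0 library at 44.7 CPM stands apart from the other 2, and without it the log2 fold change was 1.08. The rise at day 4 plus VC differed between the lines by -0.49 ± 0.24, which was not called (edgeR adjusted p = 0.125). Of 12 markers of the hypoxia response, 8 were lower and 1 higher in D/KO at day 4 plus VC (median log2 fold change -0.92), and 5 were lower, 2 higher and 5 not called in WT (median -0.127), beside the 26.2% and 22% of all genes called lower in these comparisons.

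The Kdm4 erasers did not move as a family. Kdm4a (ENSMUSG00000033326, chr4:117994154-118037240) fell in D/KO cells at day 4 without VC, from 171, 140 and 128 to 110, 102 and 111 CPM, with a log2 fold change of -0.45 ± 0.09 (edgeR adjusted p = 0.000155). With VC it went from 116, 125 and 123 to 108, 101 and 100 CPM, a log2 fold change of -0.24 ± 0.09 (edgeR adjusted p = 0.0275) whose call was lost under 6 of 11 other settings. VC alone at day 0 lowered it by 0.27 (edgeR adjusted p = 0.0254), and WT cells were not called in any comparison of this table. Kdm4c (ENSMUSG00000028397, chr4:74160734-74324097) rose at day 4 plus VC in both lines. It went from 21.3, 17.9 and 20.2 to 32.3, 26.4 and 26.4 CPM in D/KO, by 0.52 ± 0.14 (edgeR adjusted p = 0.00224), and from 17.3, 24.5 and 19.8 to 24.9, 27 and 29.8 CPM in WT, by 0.41 ± 0.14 (edgeR adjusted p = 0.0183). The WT call was lost when replicate 1 or 3 of day 0 plus VC or replicate 3 of day 4 plus VC was left out, at 0.30 to 0.38, and against day 0 without VC, at 0.27.

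Kdm4b (ENSMUSG00000024201, chr17:56633062-56709870) went in opposite directions in the lines. D/KO cells with VC fell from 55.6, 57.4 and 42.1 CPM at day 0 to 43, 48.6 and 48.7 at day 2 and 35.9, 31.3 and 37.7 at day 4. WT cells with VC had 49.6, 52 and 45.7 CPM at day 0 and 70.4, 59.5 and 56.6 at day 4. In each line day 4 does not overlap day 0, with log2 fold changes of -0.56 ± 0.12 in D/KO (edgeR adjusted p = 0.000161) and 0.34 ± 0.12 in WT (edgeR adjusted p = 0.0192). Their difference was -0.91 ± 0.17 (edgeR adjusted p = 9.7e-05), and it was -0.86 and still called against day 0 without VC. The rise in WT was not called against that baseline (0.09), nor without WT replicate 3 of day 0 plus VC (0.29) or replicate 1 of day 4 plus VC (0.25). D/KO cells without VC had 54.4, 53.7 and 49 CPM at day 4, above all 3 libraries with VC, and the difference with VC was -0.58 ± 0.12 (edgeR adjusted p = 0.000221). The mean at day 4 plus VC in D/KO was the lowest of its 12 group means, at 35 ± 3.29 CPM (SD, n = 3).

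Cbx5 (ENSMUSG00000009575, chr15:103099971-103148243), the reader, rose stepwise in D/KO cells. With VC it went from 83, 90.1 and 98.8 CPM at day 0 to 132, 124 and 133 at day 2 and 178, 154 and 138 at day 4. The 3 times do not overlap, with log2 fold changes of 0.51 ± 0.10 (edgeR adjusted p = 5.95e-05) and 0.79 ± 0.10 (edgeR adjusted p = 2.37e-08). Without VC it went from 98.3, 100 and 101 to 137, 122 and 140 CPM at day 4, by 0.42 ± 0.10 (edgeR adjusted p = 0.000987). WT cells with VC had 90.9, 99.5 and 111 CPM at day 0 and 119, 103 and 119 at day 4, which overlap and were not called. The change in D/KO at day 4 plus VC exceeded that in WT by 0.62 ± 0.14 (edgeR adjusted p = 0.00106). Against day 0 without VC, Cbx5 was called higher in WT too (0.35, edgeR adjusted p = 0.00477), and the difference between the lines was 0.30 and not called.

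At day 0, VC lowered Ehmt1 and Kdm4a in D/KO, beside 12.1% of all genes called higher and 14% lower, and neither call held when D/KO replicate 1 of day 0 or of day 0 plus VC was left out, at -0.24 and -0.27 for Ehmt1 and -0.15 and -0.24 for Kdm4a. The Ehmt1 call was also lost without replicate 2 of either group, at -0.25 and -0.26. In WT at day 0, VC raised Suv39h1 and lowered Kdm3a, as above, with 15.1% of all genes higher and 14.4% lower. Markers of other cell types moved with VC alone as well. The summed fibroblast markers went from between 63208 and 63935 CPM to between 162331 and 177841 CPM in WT, with 6 of 10 called higher and 1 lower, and the summed muscle markers from between 14.1 and 17.4 CPM to between 40.3 and 49.1 CPM. In D/KO the summed endothelial markers went from between 585 and 709 CPM to between 215 and 256 CPM, with all 5 called lower, and the part of these shifts in the calls was not tested. At day 4 in D/KO, Suv39h1, Suv39h2, Setdb1 and Kdm4c were higher and Kdm4b lower with VC, with 16.8% of all genes higher and 17.7% lower. Suv39h1 was at 12, 13.2 and 14.5 CPM without and 17.6, 20.9 and 21.2 CPM with VC in that comparison, a log2 difference of 0.59 ± 0.14 (edgeR adjusted p = 0.000689). The Setdb1 difference of 0.29 was called under 3 of 10 other settings only, and that of Kdm4c, at 0.46, was lost without replicate 2 of day 4 (0.33) or replicate 1 of day 4 plus VC (0.36). Proliferation markers were higher with VC at that time for 11 of 12. In WT at day 4 edgeR called none of the 10 for VC, 2 had an unadjusted p under 0.05 and DESeq2 called 0, with 12% of all genes higher and 10.4% lower. Between D/KO and WT at day 0, Suv39h1 was higher (0.39) and Kdm3a and Kdm4c were lower (-0.80 and -0.41) in D/KO, where 22.1% of all genes were higher and 21.1% lower. Without the third D/KO library of day 0, Suv39h1 and Kdm4c were no longer called, at 0.17 and -0.33. The first call was also lost without WT replicate 1 (0.34) and the second without WT replicate 3 (-0.37). Proliferation markers were higher in D/KO for 11 of 12, and their part in the Suv39h1 difference was not tested.

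The difference between the lines in their change was called for 3 of the 10 genes at day 4 plus VC (Suv39h1 and Cbx5 more positive, Kdm4b more negative in D/KO), where 13.9% of all genes were called more positive and 15.5% more negative. At day 2 plus VC edgeR called it for Suv39h1, beside 6.86% and 7% of all genes, while DESeq2 called 3 genes (Suv39h1, Ehmt1 and Cbx5). Without VC edgeR called none of the 10 at day 2 or at day 4. At day 2, 0 genes had an unadjusted p under 0.05 and DESeq2 called 0, with 3.43% of all genes more positive and 3.11% more negative. At day 4, 2 genes had an unadjusted p under 0.05 and DESeq2 called 1 (Ehmt1, at -0.36), with 7.27% and 7.04% of all genes. All D/KO comparisons with VC share their day 0 libraries, as do those without.

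In the inhibitor table, Suv39h1 was the gene that every inhibitor lowered. Repsox, Vactosertib and A83-01 inhibit the TGFb type I receptor, and DMH-1 inhibits a BMP type I receptor. The study describes Vactosertib as acting on both receptors. Untreated D/KO fibroblasts had 28.4, 26.7 and 26.3 CPM of Suv39h1. Repsox gave 18, 16.2 and 17.8 CPM, Vactosertib 16.4, 17.3 and 17.6, DMH-1 17.6, 17.6 and 19.9, and A83-01 13.4, 13.8 and 13.6. No treated library reaches the control range. The log2 fold change was -0.65 ± 0.11 for Repsox (edgeR adjusted p = 0.00025), -0.66 ± 0.11 for Vactosertib (edgeR adjusted p = 0.000284), -0.56 ± 0.11 for DMH-1 (edgeR adjusted p = 0.00279) and -0.999 ± 0.11 for A83-01 (edgeR adjusted p = 1.99e-06). All 4 comparisons share the same 3 control libraries. Each call held under every other setting tried, and without the Repsox library that stood apart its value was -0.61.

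The inhibitors were compared only at matched doses, in 2 pairs. At 1 uM, Suv39h1 was lower with A83-01 than with DMH-1 by 0.44 on the log2 scale (95% interval -0.65 to -0.23, edgeR adjusted p = 0.00638). It was the only one of the 10 called, where 11.9% of all genes were higher and 13.4% lower. At 0.1 uM, Suv39h1 differed by 0.01 between Repsox and Vactosertib (95% interval -0.20 to 0.22). Without the Repsox library that stood apart the difference was 0.05, and again 0 of the 10 were called. EdgeR called none of the 10 there, 0 had an unadjusted p under 0.05 and DESeq2 called 0, and of all 15164 genes 0% were higher and 0% lower, with 452 at an unadjusted p under 0.05 and 2 called by DESeq2. The intervals cover the spread between libraries only, and doses of the pairs differ from each other.

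Of the other 9 genes, edgeR called 0 to 2 per inhibitor. With A83-01, Ehmt1 was lower, at 28.8, 32.7 and 28.7 CPM against 36.2, 42.3 and 44 in the control (log2 fold change -0.44 ± 0.16, edgeR adjusted p = 0.0474), and Ehmt2 higher, at 231, 209 and 216 against 168, 187 and 200 CPM (0.24 ± 0.08, edgeR adjusted p = 0.0298). In this comparison 16.4% of all genes were higher and 16.2% lower, and each of the 2 calls was lost under 7 of 12 other settings. Leaving out any A83-01 library ended the Ehmt1 call, as did control replicate 2 or 3, at -0.38 to -0.50, and leaving out control replicate 1 moved Ehmt2 to 0.17. DMH-1 gave a higher Ehmt2, at 226, 218 and 220 CPM (0.26 ± 0.08, edgeR adjusted p = 0.0472), lost under 9 of 12 settings including the removal of any DMH-1 library, with 5.96% of all genes higher and 3.79% lower. Repsox gave a lower Kdm4b (-0.27 ± 0.09, edgeR adjusted p = 0.0382), at 13.4% of all genes higher and 11.8% lower. Without Repsox replicate 2 it was -0.19 and not called, and it was lost too without Repsox replicate 1 (-0.28) or control replicate 2 (-0.25) or 3 (-0.21). Ehmt1 had a log2 fold change of -0.45 with Repsox (95% interval -0.77 to -0.13), which DESeq2 called and edgeR did not (adjusted p = 0.0543), and of -0.24 without Repsox replicate 2. With Vactosertib it was -0.33 (95% interval -0.65 to -0.01), not called. With Vactosertib Suv39h1 was the one gene called, with 11.8% of all genes higher and 10.3% lower. Kdm3a lay between 32.9 and 43.6 CPM in all 15 D/KO libraries, and Setdb1, Kdm3a, Kdm4a, Kdm4c, Suv39h2 and Cbx5 were called with no inhibitor. Proliferation markers were called lower for 6 of 12 with Repsox, 8 with Vactosertib, 10 with A83-01 and 5 with DMH-1, and their sum was 179 to 181 CPM in the control and 93.2 to 103 CPM with A83-01. Of 12 hypoxia markers, 9 were lower with Repsox, 9 with Vactosertib, 10 with A83-01 and 5 with DMH-1. Markers of other cell types moved too. From control to A83-01, the sum of fibroblast markers went from 88850 to 100834 CPM down to 47847 to 51449 CPM, that of endothelial markers from 290 to 331 CPM down to 141 to 181 CPM, and that of Schwann cell markers from 7.38 to 10.1 CPM up to 33.1 to 42.2 CPM. With DMH-1 these sums were 74921 to 93066, 318 to 411 and 12.3 to 15.3 CPM. The fibroblast sum was 43754 to 58341 CPM with Repsox and 57320 to 62865 CPM with Vactosertib, and the Schwann cell sum was 19.7 to 22.9 and 14.8 to 21.5 CPM. The part of any of these lists in the Suv39h1 values was not tested.

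**Figure D4:**
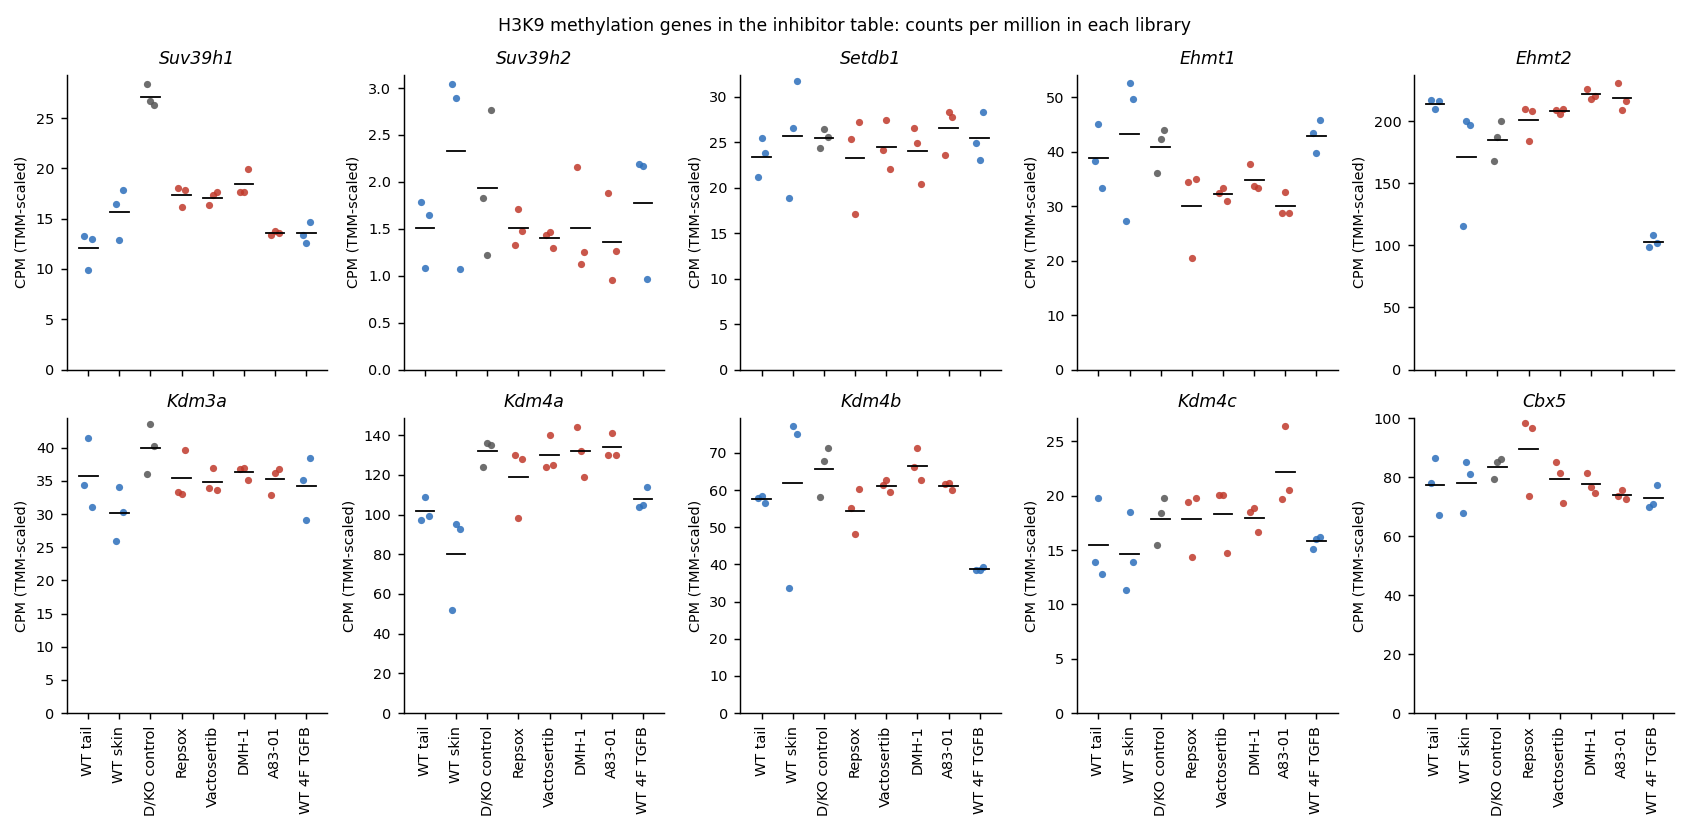
CPM (TMM-scaled) of each gene in the 8 groups of the inhibitor table, with a point per library and a line at the mean of 3 (grey, D/KO control; red, D/KO with an inhibitor; blue, WT groups; vertical axes start at 0). Suv39h1 is highest in the D/KO control at 26.3 to 28.4 CPM, and replicate 1 of WT skin lies apart in Ehmt1, Ehmt2, Kdm4a and Kdm4b.

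Untreated D/KO fibroblasts of this table also had more Suv39h1 than WT tail tip fibroblasts, which lay at 13.3, 9.92 and 13 CPM. The groups are far apart, and the log2 difference of 1.18 ± 0.11 (edgeR adjusted p = 1.93e-07) is 2.27-fold. Kdm4a was higher too, at 124, 136 and 135 against 97.3, 109 and 99.5 CPM (0.38 ± 0.10, edgeR adjusted p = 0.00753). EdgeR called no other gene of the list, DESeq2 also called Ehmt2 (edgeR value -0.20, 95% interval -0.35 to -0.04), and 21.3% of all genes were higher and 18.9% lower in D/KO. The D/KO animals were younger (4 against 14 weeks), and 9 of 12 proliferation markers and 10 of 12 hypoxia markers were higher. Of 5 endothelial markers 4 were higher and 1 lower, with sums of 290 to 331 CPM in D/KO and 73.3 to 91.1 CPM in WT, and Schwann cell markers summed to 7.38 to 10.1 and 3.99 to 4.69 CPM. The parts of genotype, age and cell composition cannot be told apart. With A83-01 the D/KO level of 13.6 ± 0.216 CPM (SD, n = 3) lay next to that of WT tail tip at 12.1 ± 1.87 CPM, though this difference was not tested.

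WT skin against WT tail tip fibroblasts gave 1 call, a higher Suv39h1 (16.5, 12.9 and 17.8 against 13.3, 9.92 and 13 CPM, log2 difference 0.38 ± 0.13, edgeR adjusted p = 0.0235), with 18.1% of all genes higher and 16.1% lower. The lowest skin library lay below the highest tail tip library. Without skin replicate 1, the library that stood apart, Suv39h1 was not called (0.34, edgeR adjusted p = 0.0546) and Kdm4b was called higher (0.40, edgeR adjusted p = 0.00224). The Suv39h1 call was lost too without skin replicate 3 (0.28) or tail tip replicate 2 (0.25), and all 12 proliferation markers were higher in skin. From tail tip to skin, the hypoxia sum went from 3018 to 3680 CPM up to 7174 to 10176 CPM. The muscle sum went from 16.1 to 21.3 CPM up to 108 to 143 CPM. The endothelial sum went from 73.3 to 91.1 CPM up to 167 to 240 CPM, although Tek was lower (-2.03). The part of these lists in the Suv39h1 difference was not tested. In skin replicate 1 Kdm4b was at 33.7 CPM against 77.2 and 75.1 in the other skin libraries, Ehmt2 at 116 against 200 and 197, and Kdm4a at 52 against 95.2 and 92.7.

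Other genes of the H3K9 pathway were followed as a list of 28, all tested. In D/KO at day 4 plus VC 8 were higher and 1 lower (median log2 fold change 0.187), in WT 8 were higher and 3 lower (0.238), and with A83-01 2 were higher and 5 lower (-0.0218). The shares of all genes called in these comparisons were 27.9% higher and 26.2% lower, 22.7% and 22%, and 16.4% and 16.2%. The 8 of 28 higher in D/KO and the 5 of 28 lower with A83-01 are close to these shares. The 1 of 28 lower in D/KO, the 3 of 28 lower in WT and the 2 of 28 higher with A83-01 lie below them. The 8 of 28 higher in WT lie above theirs, and none of these counts was tested against the shares. Uhrf1, which binds H3K9me3 and hemimethylated DNA at replication, went apart in the lines, with 1.69 ± 0.16 in D/KO (edgeR adjusted p = 3.81e-11) and -1.34 ± 0.17 in WT (edgeR adjusted p = 4.45e-08), and it fell with A83-01 (-1.001, edgeR adjusted p = 0.00738). The part of proliferating cells in the Uhrf1 values was not tested, and of the 12 proliferation markers 12 were higher in D/KO, 8 lower in WT and 10 lower with A83-01. Kmt5a, the H4K20 monomethyltransferase of the cell cycle, rose in both (0.98 and 0.75) and fell with A83-01 (-0.65, edgeR adjusted p = 1.68e-05). Kdm3b, a close relative of Kdm3a, also rose in both, by 0.55 in D/KO (edgeR adjusted p = 0.000329) and by 0.50 in WT (edgeR adjusted p = 0.00139). Mecom, which has been described as an H3K9 monomethyltransferase, fell in WT (-1.57 ± 0.23) and rose with A83-01 (1.09 ± 0.18), and Cdyl, a reader of the mark, fell with A83-01 (-0.52 ± 0.11). The other HP1 genes, Cbx1 and Cbx3, were called in none of these 3 comparisons, with values of -0.17 and -0.17 in D/KO, 0.22 and -0.17 in WT, and -0.23 and 0.10 with A83-01. In D/KO at day 4 plus VC Cbx5 was thus the one HP1 gene called, and in WT none of the 3 was. Of the enzymes that trimethylate H4K20 after H3K9me3, Kmt5c was higher in WT (0.86 ± 0.24, edgeR adjusted p = 0.00363) but not called in D/KO (-0.51) or with A83-01 (-0.01), and Kmt5b was not called in any of the 3.

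Across the 12 group means of the reprogramming table (log2 CPM, a description over groups of the same 2 lines), members of the list paired in different ways. Setdb1 went with Kdm3a (Pearson's r = 0.865) and Kdm4c (0.853), while Suv39h1 went against Kdm3a (-0.754) and Cbx5 against Kdm4a (-0.831). Suv39h1 and Suv39h2 were less alike (0.633). The genes with the pattern most like each member among 15831 others were Dera (0.9) and Tmem120a (0.897) for Suv39h1, Atad2 (0.929) and Mrpl19 (0.921) for Suv39h2, Mdc1 (0.951) and Rfx7 (0.949) for Setdb1, Trappc8 (0.904) and Rnf111 (0.885) for Ehmt1, and Igf2r (0.981) and Cc2d1a (0.945) for Ehmt2. For the erasers they were Snrnp48 (0.971) and Zmym5 (0.959) for Kdm3a, Adam9 (0.943) and Itih2 (0.922) for Kdm4a, Prrg2 (0.946) and Dhrs3 (0.946) for Kdm4b, and Prpf3 (0.94) and G2e3 (0.934) for Kdm4c. For Cbx5 they were Abr (0.978) and Zfp35 (0.97). The map of all comparisons shows the 52 calls among 250 gene and comparison pairs.

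**Figure D5:**
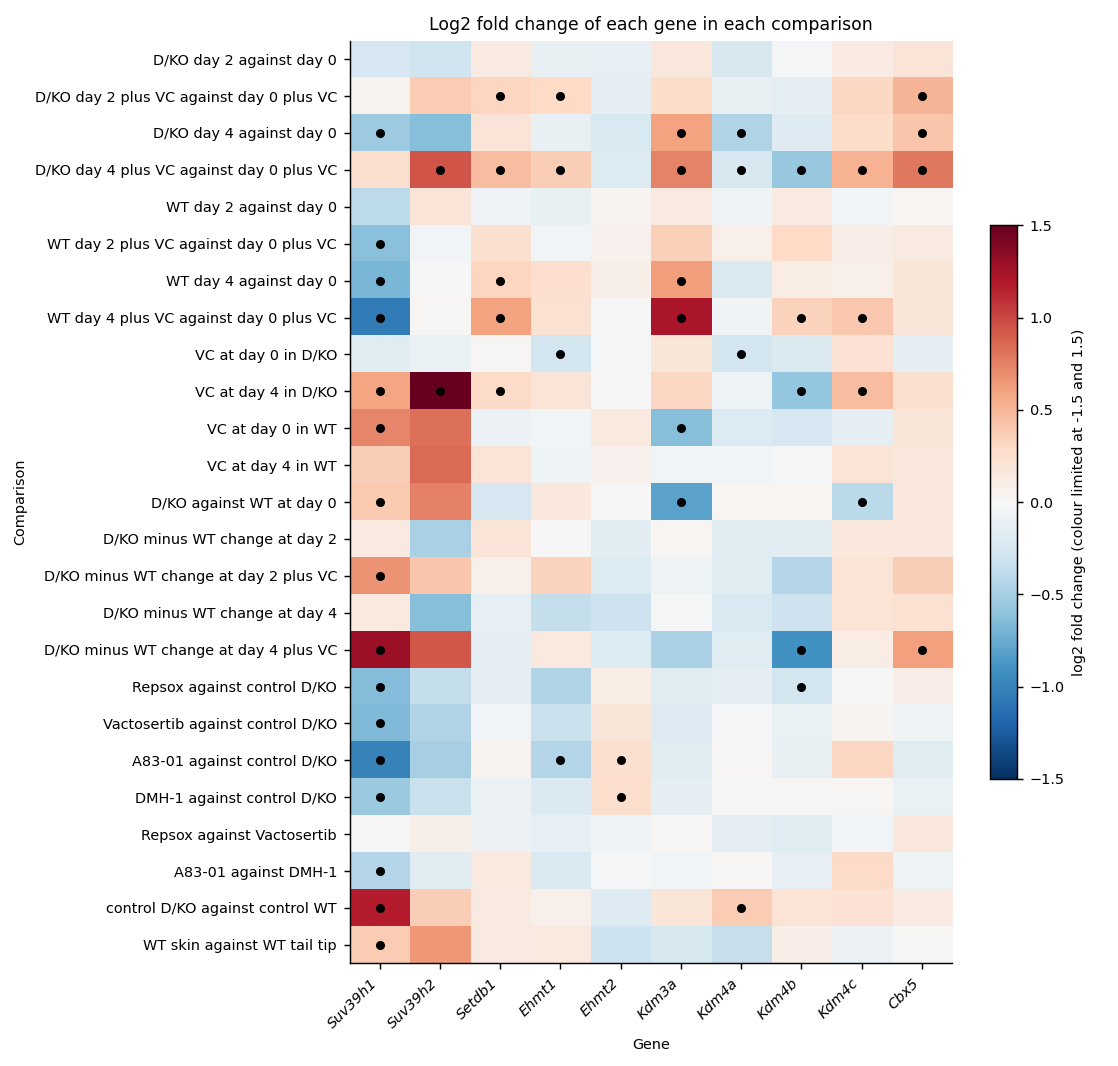
Log2 fold change of each of the 10 genes (columns) in each of the 25 comparisons (rows), with red for higher and blue for lower values, colours limited at -1.5 and 1.5, and a black dot where the edgeR adjusted p was under 0.05. Suv39h1 has the most dots, lower in WT induction and with all 4 inhibitors, and the row of D/KO day 4 plus VC has 8.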

How the data were processed

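PolyA RNA of 60 fibroblast libraries was sequenced paired-end. Per the labels and the study's methods, the authors trimmed reads with Trim Galore after FastQC, aligned them with HISAT2 to GRCm39 and counted them per gene with featureCounts (Subread). Versions and the strand setting are not given in the sources used here. The deposited values are raw counts in a reprogramming table (36 libraries) and an inhibitor table (24 libraries), which were tested separately.

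Groups were taken from the sample labels. Counts were filtered with filterByExpr (minimum count 10), scaled by TMM and tested with edgeR 4.0.16 (quasi-likelihood, R 4.3.3), with Benjamini-Hochberg adjustment over all genes tested and a threshold of 0.05. The reprogramming fit used all 12 groups (15832 genes). The inhibitor fit used 18 libraries, without skin and TGFB (15164 genes), and skin was tested in a fit of all 24 (15652 genes). Levels are TMM-scaled CPM, divided by the deposited gene length for CPM per kb. Fold changes are log2 with standard errors, and intervals span 1.96 standard errors on each side. Inhibitor times come from the study's methods. Doses come from its figure legend for the DNA methylation measurements and were taken to hold for the RNA libraries. Per the methods, RNA and DNA came from the same samples. Promoters were read from GRCm39 at GENCODE M39 start sites.

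The members and gene lists were chosen with earlier results of these data known. All 10 members are named in the text. Genes with a like pattern are the 2 of highest Pearson's r over the 12 group means. Alternatives were DESeq2 size factors, no filter, DESeq2 1.42.0, fits of only the groups compared or of all 24 inhibitor libraries, day 0 without VC as the baseline, and leaving out each library. The test was tried on simulated data. No pair of libraries in a group agreed within sampling noise (chi-square per degree of freedom 3.25 to 397). No deposited column of sample values was left unused.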

Additional observations from a re-analysis of the deposited data

Results flagged for a closer look

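The change from day 0 plus VC differed between D/KO and WT fibroblasts, by the interaction term of the edgeR fit, for Suv39h1 (log2 difference, D/KO minus WT, of 0.68 on day 2 and 1.29 on day 4). On day 4 it also differed for Kdm4b (-0.91) and Cbx5 (0.62). The Kdm4b difference was the one also called against day 0 without VC. Line, sex and age change together with the Ercc1 genotype, so their parts cannot be told apart.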

How the results depend on the processing

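Of 52 called differences among 250, 25 kept the call under every alternative run. Over all alternatives, 491 of 585 values kept call and direction, 92 were no longer called, 2 reversed, and 68 values of uncalled differences were called. Both reversals were of Suv39h1 with day 0 without VC as the baseline, at 0.11 for WT day 2 plus VC and -0.24 for the D/KO minus WT change at day 2 plus VC.

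The number of the 10 genes called moved by over 1.5 times as follows. DESeq2 size factors gave 1 at D/KO day 2, 1 at WT day 2 and 1 for DMH-1, and DESeq2 gave 1 at D/KO day 2, 1 at WT day 2, 3 for the D/KO minus WT change at day 2 plus VC and 1 at day 4. Without the filter it was 1 at D/KO day 2 plus VC, 2 at WT day 2 plus VC, 0 for VC at day 0 in D/KO, 1 for Repsox, 1 for DMH-1 and 0 for skin. With only the groups compared it was 3 at WT day 2 plus VC, 6 at WT day 4, 0 and 3 for VC at day 0 and day 4 in D/KO, 4 for VC at day 0 in WT, 1 for Repsox, 2 for Vactosertib, 1 for DMH-1 and 0 for skin. Day 0 without VC gave 6 at D/KO day 2 plus VC and 3 for the change at day 2 plus VC. All 24 inhibitor libraries gave 1 for Repsox, 1 for A83-01, 1 for DMH-1 and 1 for control D/KO against WT. An alternative chosen after seeing the data, the fit without Repsox replicate 2, gave 2 for Vactosertib.

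Leaving out 1 library gave 0 to 1 genes at D/KO day 2, 2 to 4 at day 2 plus VC, 4 to 6 at day 4 and 6 to 7 at day 4 plus VC. For WT it gave 0 to 1 at day 2, 1 to 2 at day 2 plus VC, 2 to 3 at day 4 and 3 to 5 at day 4 plus VC. For VC it gave 0 to 2 at day 0 and 3 to 6 at day 4 in D/KO, and 2 to 3 and 0 to 1 in WT. It gave 1 to 4 for D/KO against WT at day 0, and 1 to 3 (day 2 plus VC) and 0 to 1 (day 4) for the difference in change. It gave 1 to 3 for Repsox, 1 to 2 for Vactosertib, 1 to 3 for A83-01, 1 to 2 for DMH-1, 2 to 3 for control D/KO against WT and 0 to 3 for skin. The causes were not tested.

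No paired analysis was possible because the labels carry no replicate number shared between groups, and numbers were given in accession order. With 3 libraries a group and 12 to 103 counts per library, Suv39h2 is limited most by depth.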

Other observations

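The group with the treatment label TGFB (4FJ_(+/-)_OCT4-GFP line) entered no comparison. Its 3 libraries had Ehmt2 at 99, 108 and 102 CPM, below the 116 to 231 CPM of the other 21 libraries of the inhibitor table. Kdm4b lay at 38.4, 38.5 and 39.4 CPM and Suv39h1 at 13.4, 12.6 and 14.7 CPM. Muscle markers summed to 1710 to 2062 CPM in this group, and Ercc1 was at 47, 47.7 and 42.3 CPM.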
